A study of Mus musculus with 16 samples.

Results

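Collagens are the structural proteins of the extracellular matrix, and every gene on the array with a symbol of the form Col, number, a, number was described. They came to 42 of the 18194 genes measured, read from 82 probe sets. They fall into 11 fibrillar genes, 9 FACIT genes (fibril-associated collagens with interrupted triple helices), 9 genes of basement membranes, 4 transmembrane genes and 9 others. Each was read from the probe set that names that gene alone and has its highest mean over the 16 arrays. A gene was tested where at least 2 arrays gave it a signal over their own 40th percentile, as 37 collagen genes had. The 5 that did not were Col6a5, Col9a2, Col11a1, Col24a1 and Col26a1, and they are not discussed further.

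A collagen molecule is a triple helix of α chains, each from its own gene. Fibrillar collagens build the cables of the dermis and FACIT collagens sit on their surface. Type IV networks underlie the basement membrane on which basal keratinocytes rest. Collagen XVII is a transmembrane protein of hemidesmosomes, and collagen VII forms the anchoring fibrils beneath them.

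The arrays came from flow-sorted cells of mouse tail epidermis on a mixed strain background, taken to follow a model of basal cell carcinoma. SmoM2 is a constantly active form of Smoothened, the transducer of hedgehog signalling, and tamoxifen switches it on in cells with an inducible Cre. Basal cells of the interfollicular epidermis (IFE) came from K14CREER/Rosa-SmoM2-YFP mice, where the keratin 14 promoter drives Cre. The SmoM2 groups were sorted at 3 days (1 array), 1 week (3 arrays), 4 weeks (3 arrays) and 10 weeks (2 arrays) after tamoxifen. A further group, which carried b-cat flox/flox beside the K14CREER and Rosa-SmoM2-YFP alleles, combined SmoM2 with β-catenin loss for 4 weeks (2 arrays). The IFE controls (3 arrays) were untreated K14CREER/Rosa-SmoM2-YFP mice, so they carry the same alleles without tamoxifen. Bulge and outer root sheath cells of the hair follicle came from K19CREERT2/Rosa-SmoM2-YFP mice, where keratin 19 drives Cre, with 1 array at 4 weeks of SmoM2 and 1 untreated control. SmoM2, tamoxifen, time since it and the sort of SmoM2-positive cells cannot be told apart here. β-catenin loss was not measured in cells without SmoM2.

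Signals are log2 values, so that a difference of 1 is a 2-fold ratio, and a level of one gene is not set against a level of another, because probe sets differ. Differences are given ± SE from limma, with p-values adjusted by the Benjamini-Hochberg method over all 14286 genes tested and a threshold of 0.05. The labels do not say that arrays of a group came from separate mice, so a p-value here reflects only how these samples vary, which may be technical. In sorted bulk samples, fewer cells of a type and less RNA per cell cannot be told apart.

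Basal epidermal markers (Krt14, Krt5 and 5 others) lay above the 40th percentile in every group, with a summed log2 signal between 15.21 and 15.95 over all arrays. Ctnnb1, the gene of β-catenin, had 12.76 and 12.93 in the β-catenin loss arrays, against 13.65, 13.21 and 13.26 in the 4-week arrays with SmoM2 alone, a difference of −0.52 ± 0.21 (adjusted p = 0.215, limma). Whether its probes lie in the floxed exons is not known here, so this signal does not check the deletion. The mean of 3 Y-linked genes ran from 3.34 to 8.41 over the 16 arrays and was 8.10 and 8.15 at 10 weeks, against 3.41, 8.18 and 3.43 in the controls. The part of sex in the collagen results was not tested. Several arrays stood apart for collagen genes: 4-week replicate 2, 1-week replicate 3, and the β-catenin loss arrays from each other. Col14a1, for example, had 4.43 in replicate 1 and 9.00 in replicate 2 of β-catenin loss.

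Collagen genes differed more between arrays than most genes did. The gap between the highest and lowest of the 16 arrays had a median of 2.83 over the 37 tested collagen genes, and of 1.23 over all genes tested. Col14a1 spanned 7.53, more than 99.9% of all genes tested, Col4a1 spanned 5.17, Col27a1 spanned 5.17 and Col4a2 spanned 5.04. At the other end Col9a1 spanned 0.52 and Col20a1 spanned 0.62. By class the median span was 3.63 for basement membrane genes, 3.01 for fibrillar genes, 1.93 for FACIT genes and 1.42 for transmembrane genes.

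After 4 weeks of SmoM2, 6 of the 37 collagen genes rose against the IFE controls and 0 fell. Of all 14286 genes, 2.44% rose, 0.798% fell and 3.24% passed in either direction. The 6 were Col4a1 and Col4a2 of the basement membrane, Col14a1 and Col9a3 of the FACIT class, and the fibrillar Col27a1 and Col5a1. By class that was 2 of 9 tested basement membrane genes, 2 of 8 FACIT genes, 2 of 9 fibrillar genes, 0 of 4 transmembrane genes and 0 of 7 others. The members went both ways, with 21 of the 37 differences above 0 and a median of 0.06, beside −0.05 over all genes tested. By class the median was 1.18 for fibrillar genes, of which 8 of 9 had a difference above 0 and 6 an unadjusted p under 0.05 by limma. It was 0.08 for basement membrane genes, 0.04 for the others, −0.23 for FACIT genes and −0.42 for transmembrane genes. At an unadjusted p under 0.05, 15 of the 37 passed, against 15.1% of all genes. These calls depend on single arrays. Without control replicate 1, 3 remained (Col4a1, Col4a2 and Col5a1), where 0.924% of all genes passed. Without 4-week replicate 2, 4 passed, beside 1.66% of all genes, and without 4-week replicate 3, 6 passed, beside 2.87%. None of the 37 passed by limma without control replicate 2 (0.0910% of all genes), control replicate 3 (0.343%) or 4-week replicate 1 (0.973%).

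**Figure D1:**
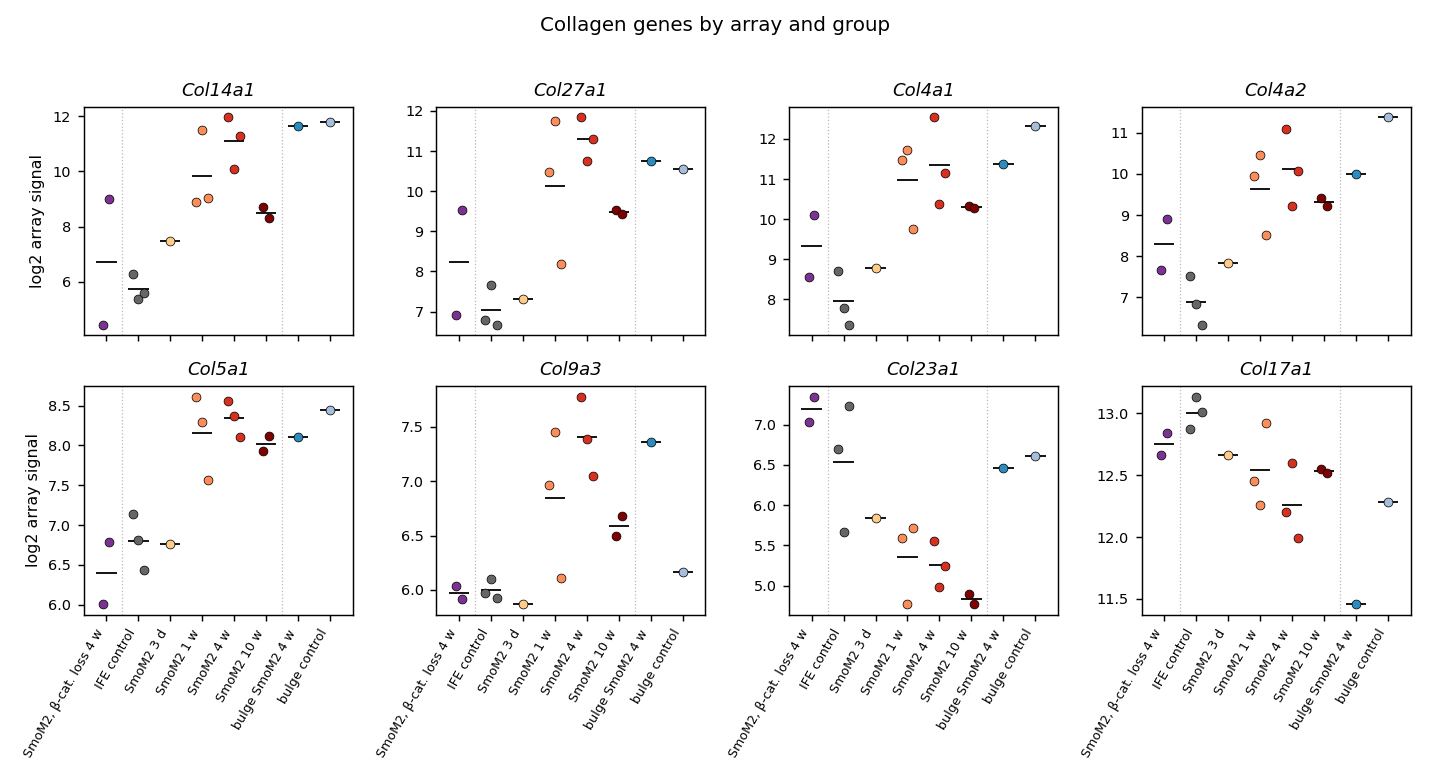
Log2 array signal (vertical axis, its range set for each panel) of 8 collagen genes in every array. Points are arrays, bars are group means, and dotted lines set off the β-catenin loss group and the bulge arrays. Col14a1, Col27a1, Col4a1, Col4a2, Col5a1 and Col9a3 lie higher in each of the 3 arrays at 4 weeks than in each of the 3 IFE controls, while Col23a1 and Col17a1 lie lower.

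Col4a1 and Col4a2 encode the 2 chains of the most widespread type IV collagen, and the genes lie head to head on mouse chromosome 8. The starts that set their promoter windows (250 bases before to 50 after the start, from RefSeq on GRCm38.p6) are 21 bases apart on opposite strands. The windows therefore share 78 bases. The annotated gene spans overlap as well, since that of Col4a1 ends at 11312889 and that of Col4a2 begins at 11312805. Both windows are shown because the pair is transcribed from one shared stretch and both genes rose at 4 weeks. Capitals mark the shared bases, which read as reverse complements of each other. Col4a1 spans chr8:11312777-11313076 on the minus strand and Col4a2 chr8:11312555-11312854 on the plus strand.
Col4a1: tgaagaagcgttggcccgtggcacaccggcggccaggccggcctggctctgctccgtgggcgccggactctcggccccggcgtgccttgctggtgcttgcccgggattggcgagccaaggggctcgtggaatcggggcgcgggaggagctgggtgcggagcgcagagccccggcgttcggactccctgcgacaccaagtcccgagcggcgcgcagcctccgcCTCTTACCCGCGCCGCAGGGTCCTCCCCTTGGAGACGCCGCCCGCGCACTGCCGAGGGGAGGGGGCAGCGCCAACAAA
Col4a2: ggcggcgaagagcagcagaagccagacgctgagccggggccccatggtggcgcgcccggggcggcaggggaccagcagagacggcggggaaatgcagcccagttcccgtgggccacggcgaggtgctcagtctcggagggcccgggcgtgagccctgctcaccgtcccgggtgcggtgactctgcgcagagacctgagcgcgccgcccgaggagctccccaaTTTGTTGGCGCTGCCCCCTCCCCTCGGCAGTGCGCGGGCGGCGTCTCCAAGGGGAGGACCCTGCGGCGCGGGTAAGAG

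In these letters each window holds the CTC box CCCTCCCC, a motif described for the human gene pair, and the GC box GGGCGG. Searched on both strands, CCCTCCCC lay in 11 of 36 windows of the collagen genes (30.6%) and in 10.8% of all 32851 windows, and GGGCGG in 22 of 36 (61.1%) and in 35.7%. The letters CCAAT lay in 13 of the 36 (36.1%) and in 37.4% of all windows, and TATAAA in 5 (13.9%) and in 13.6%. The GLI consensus GACCACCCA, bound by the transcription factors of hedgehog signalling, lay in 0 of the 36 windows and in 0.253% of all. A window was given for 33 of the 42 genes. A match in such a window is a description of its letters and not a binding site.

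Col4a1 had 12.54, 10.38 and 11.15 in the 4-week SmoM2 arrays, against 8.70, 7.79 and 7.36 in the controls. Every 4-week array lay above every control, and the gene rose by 3.40 ± 0.64 (adjusted p = 0.0241, limma). Col4a2 had 11.08, 9.22 and 10.08 at 4 weeks, against 7.52, 6.85 and 6.33 in the controls, and rose by 3.22 ± 0.57 (adjusted p = 0.0200, limma). The 2 genes ranked the 3 arrays of each of these groups in the same order. The single array at 3 days held 8.77 for Col4a1 and 7.84 for Col4a2, just above the highest control of each gene. At 1 week Col4a1 had 11.48, 11.72 and 9.75 and Col4a2 had 9.96, 10.45 and 8.51, with replicate 3 the lowest in both.

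The other type IV genes did not share this pattern. Col4a3 and Col4a4, which supply chains of a network better known from the kidney glomerulus, form a second head-to-head pair on chromosome 1. Their annotated spans overlap by 114 bases. The Col4a4 window (chr1:82586800-82587099, minus strand, RefSeq, GRCm38.p6) is printed because these 2 genes were high in the same 3 arrays. Those were both arrays at 10 weeks and replicate 2 at 4 weeks. Capitals mark the bases that lie within both annotated gene spans. All of them come before the start that sets this window, so the overlap holds for the gene spans and not for that start.
Col4a4: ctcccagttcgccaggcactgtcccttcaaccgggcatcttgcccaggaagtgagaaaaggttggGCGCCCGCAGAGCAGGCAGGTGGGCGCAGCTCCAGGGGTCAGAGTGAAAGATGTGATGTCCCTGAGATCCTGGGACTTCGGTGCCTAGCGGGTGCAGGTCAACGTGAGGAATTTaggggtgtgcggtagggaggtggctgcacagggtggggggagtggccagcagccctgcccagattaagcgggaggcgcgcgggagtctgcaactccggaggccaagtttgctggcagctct

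At 4 weeks Col4a3 had 4.24, 6.40 and 4.64, against 4.96, 5.21 and 4.87 in the controls, and Col4a4 had 5.37, 9.72 and 5.55, against 7.35, 6.03 and 5.51. Replicate 2 alone was high in each gene. For Col4a5 and Col4a6, the X-linked pair, the starts that set the windows lie 1343 bases apart, and the windows share 0 bases. Col4a5 had 9.28, 9.41 and 9.21 at 4 weeks, against 9.87, 10.50 and 8.73 in the controls. Col4a6 had 8.08, 8.05 and 7.28, against 8.43, 8.11 and 8.11, a difference of −0.41 ± 0.26 (adjusted p = 0.546, limma). Col2a1, Col4a4, Col4a5, Col4a6, Col6a4, Col8a2 and Col22a1 fall outside the rule for named genes and were chosen after their values were seen.

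**Figure D2:**
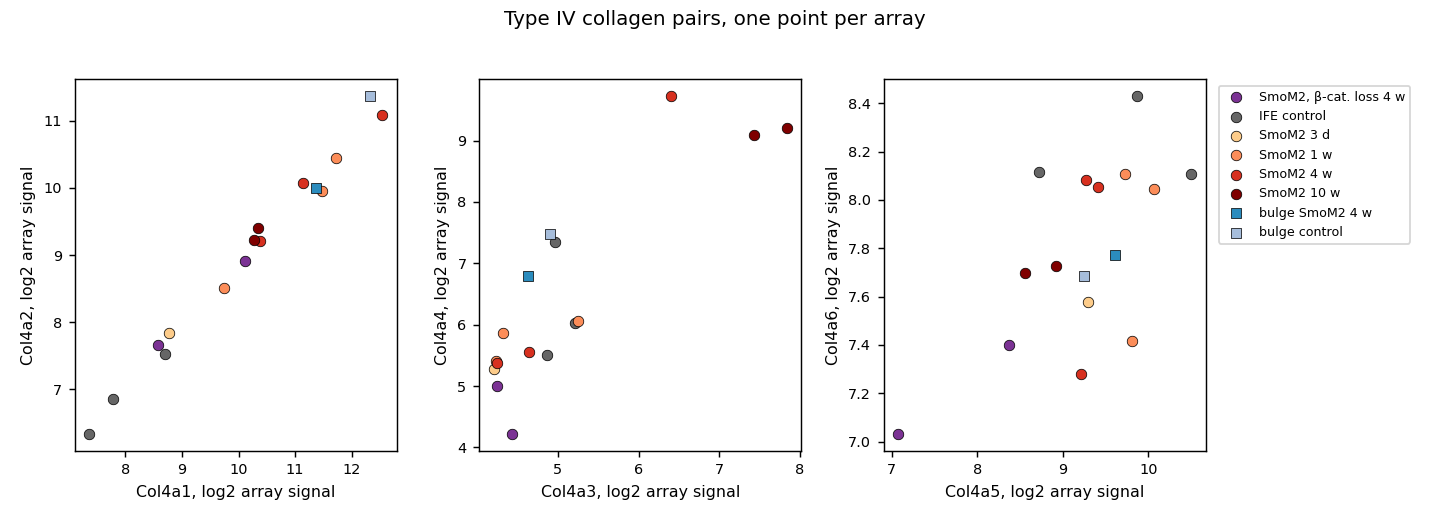
Log2 array signals of the 3 type IV collagen pairs, one point per array, coloured by group, with squares for the bulge arrays. Col4a1 and Col4a2 lie along one line from the controls to the bulge control and a 4-week array. Col4a3 and Col4a4 are both high in the 2 arrays at 10 weeks and in 1 array at 4 weeks, and Col4a5 and Col4a6 are both low in replicate 1 of β-catenin loss.

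The remaining basement membrane genes include those of the dermal-epidermal anchor. Col7a1, the anchoring fibril collagen, had 10.10, 10.80 and 10.58 at 4 weeks, against 10.15, 11.52 and 10.58 in the controls, and the groups overlapped. Col18a1, whose product carries the endostatin fragment, had 10.14, 9.23 and 10.25 at 4 weeks, against 10.80, 10.34 and 10.34, a difference of −0.62 ± 0.40 (adjusted p = 0.562, limma). All 3 of its 4-week values lay below the lowest control.

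Among the FACIT genes, Col14a1 had the largest difference of the 37 at 4 weeks. Its product binds the surface of collagen I fibrils. It had 11.96, 10.08 and 11.29 in the 4-week SmoM2 arrays, against 6.27, 5.36 and 5.58 in the controls. The gene rose by 5.37 ± 1.00 (adjusted p = 0.0240, limma). Before that it had 7.47 at 3 days, above all 3 controls, and 8.90, 11.50 and 9.05 at 1 week. Col9a3, a chain of the cartilage collagen IX, had 7.78, 7.38 and 7.04 at 4 weeks, against 5.97, 6.10 and 5.93 in the controls, and rose by 1.40 ± 0.30 (adjusted p = 0.0316, limma). A second chain of that trimer, Col9a1, stayed between 5.53 and 6.05 over all 16 arrays.

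The other named FACIT genes did not pass. Col12a1, another fibril-surface collagen, had 6.28, 9.27 and 8.03 at 4 weeks, against 8.19, 9.34 and 9.50 in the controls. Col16a1 had 7.23, 9.43 and 8.21, against 8.51, 9.35 and 9.28. In both genes replicate 1 was the lowest and replicate 2 reached the controls. Col19a1 had 5.28, 4.56 and 4.39, against 4.86, 5.44 and 5.00, and the groups overlapped.

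Of the fibrillar genes, Col27a1 had the largest difference at 4 weeks. It encodes a fibrillar collagen with a shortened triple helix that is known from cartilage. It had 11.84, 10.76 and 11.31 in the 4-week SmoM2 arrays, against 6.80, 7.67 and 6.67 in the controls, and rose by 4.26 ± 0.81 (adjusted p = 0.0247, limma). At 3 days it had 7.30, within the controls, and at 1 week 10.48, 11.75 and 8.18. Col5a1, whose chain takes part in starting collagen I fibrils, had 8.56, 8.37 and 8.11 at 4 weeks, against 7.14, 6.81 and 6.44, and rose by 1.55 ± 0.30 (adjusted p = 0.0247, limma). Its 4-week arrays lay close together and all above the highest control.

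The partner chains of Col5a1 had differences of the same sign that did not pass. Col5a2 had 9.57, 9.82 and 9.11 at 4 weeks, against 8.44, 7.26 and 7.53, a difference of 1.76 ± 0.59 (adjusted p = 0.155, limma). Col5a3 had 5.64, 7.35 and 6.31, against 5.49, 5.29 and 4.93, a difference of 1.19 ± 0.40 (adjusted p = 0.149, limma). Neither group of 4-week values overlapped its controls.

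The main collagens of the dermis did not pass at 4 weeks. Col1a1 had 4.21, 4.81 and 4.44, against 4.26, 4.50 and 3.78 in the controls, and lay above the 40th percentile in 2 arrays of the 16, which were the 2 bulge arrays. Its partner chain Col1a2 had 8.38, 6.54 and 7.12, against 6.11, 6.69 and 5.70, a difference of 1.18 ± 0.48 (adjusted p = 0.260, limma). Col3a1 had 4.20, 4.45 and 5.89, against 5.10, 5.36 and 4.33, and the groups overlapped. Col1a2 lay above the 40th percentile in all 16 arrays. Because probe sets differ, these levels do not show whether the 2 chains of collagen I differed.

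Markers of dermal fibroblasts were read beside these genes. Of 15 tested, 1 rose at 4 weeks and 0 fell. It was Dcn, the gene of the fibril-binding proteoglycan decorin, with 12.53, 10.69 and 11.46 at 4 weeks, against 9.00, 8.67 and 9.22 in the controls, a rise of 2.59 ± 0.61 (adjusted p = 0.0430, limma). Others of the list lay lower without passing. Sparc had 8.05, 9.87 and 9.48 at 4 weeks, against 10.39, 12.08 and 11.67, a difference of −2.25 ± 0.70 (adjusted p = 0.123, limma), and Thy1 had 7.71, 4.67 and 7.34, against 8.29, 8.05 and 8.32 (adjusted p = 0.259, limma). Neither gene had overlapping groups, and both were chosen after their values were seen. Of the 15, 7 had an unadjusted p under 0.05 by limma, and the median difference over the 15 was −0.02. The summed log2 signal of the 16 markers on the array ran from 13.40 to 13.55 at 4 weeks and from 12.84 to 13.50 in the controls. Dpt lay at or below the 40th percentile in every array of both groups, and Lum in every control. Of the other lists, Cspg4 of pericytes rose by 1.52 ± 0.33 (adjusted p = 0.0340, limma). It was the 1 gene called of 5 tested for smooth muscle and pericytes. Of those 5, 2 had differences above 0, and the median was −0.08. Myh11 and Rgs5 of that list lay at or below the 40th percentile in every 4-week array. Pmp22 of Schwann cells fell by 1.94 on the log2 scale (adjusted p = 0.0240, limma). Of the remaining lists, 0 of 5 endothelial, 0 of 5 leukocyte, 0 of 7 melanocyte and 0 of 3 skeletal muscle genes passed. The part of these markers in the collagen results was not tested.

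Bulge markers moved too. Lhx2 rose by 4.48 ± 0.68 (adjusted p = 0.0101, limma), Lgr5 by 3.88 ± 0.70 (adjusted p = 0.0200, limma) and Tcf7l1 by 1.60 ± 0.20 (adjusted p = 0.00604, limma) at 4 weeks, which made 3 of 7 tested. Their summed log2 signal ran from 12.52 to 13.37 at 4 weeks and from 10.10 to 10.61 in the controls. Cd34 lay at or below the 40th percentile in every array of both groups. In the bulge control array Nfatc1 had 6.19 and Fst had 6.06, each below every IFE control of that gene. The part of bulge markers in the collagen results was not tested.

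None of the 4 transmembrane genes passed at 4 weeks. Col17a1 had 12.21, 12.60 and 11.99 at 4 weeks, against 12.88, 13.14 and 13.01 in the controls, a difference of −0.74 ± 0.21 (adjusted p = 0.0922, limma). Col23a1 had 5.56, 4.98 and 5.24, against 6.70, 5.66 and 7.23, a difference of −1.27 ± 0.37 (adjusted p = 0.0930, limma). The groups did not overlap in either gene. With the replicate number as a block, which the pairing of these arrays allows, Col23a1 passed as lower (−1.27 ± 0.29, adjusted p = 0.0352, limma). The wider block on title numbers also brought Col2a1, the cartilage fibrillar collagen, past the threshold (0.65 ± 0.16, adjusted p = 0.0487, limma). Its adjusted p by limma was 0.144 without a block and 0.0703 with experiment numbers. Over the control, 1-week and 4-week arrays alone Col2a1 did not pass (adjusted p = 0.0552, limma). Col25a1, a transmembrane collagen found in amyloid plaques, had 6.24, 7.19 and 6.20, against 6.28, 6.96 and 6.26, and the groups overlapped.

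Of the beaded-filament and network-forming collagens, none passed at 4 weeks. Col6a1 had 9.06, 9.73 and 7.93, against 8.10, 6.91 and 7.61, and Col6a2 had 7.74, 9.25 and 7.07, against 6.64, 7.09 and 6.48. In each the highest value was replicate 2, and in each the groups overlapped. Col6a3, the third chain of collagen VI, had 5.88, 5.20 and 5.40, against 5.43, 5.91 and 5.01. Col8a1, a short-chain network collagen, had 6.43, 6.30 and 6.34 at 4 weeks, against 7.85, 6.80 and 7.45 in the controls, a difference of −1.01 ± 0.47 (adjusted p = 0.341, limma). All 3 of its 4-week arrays lay below the lowest control.

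**Figure D3:**
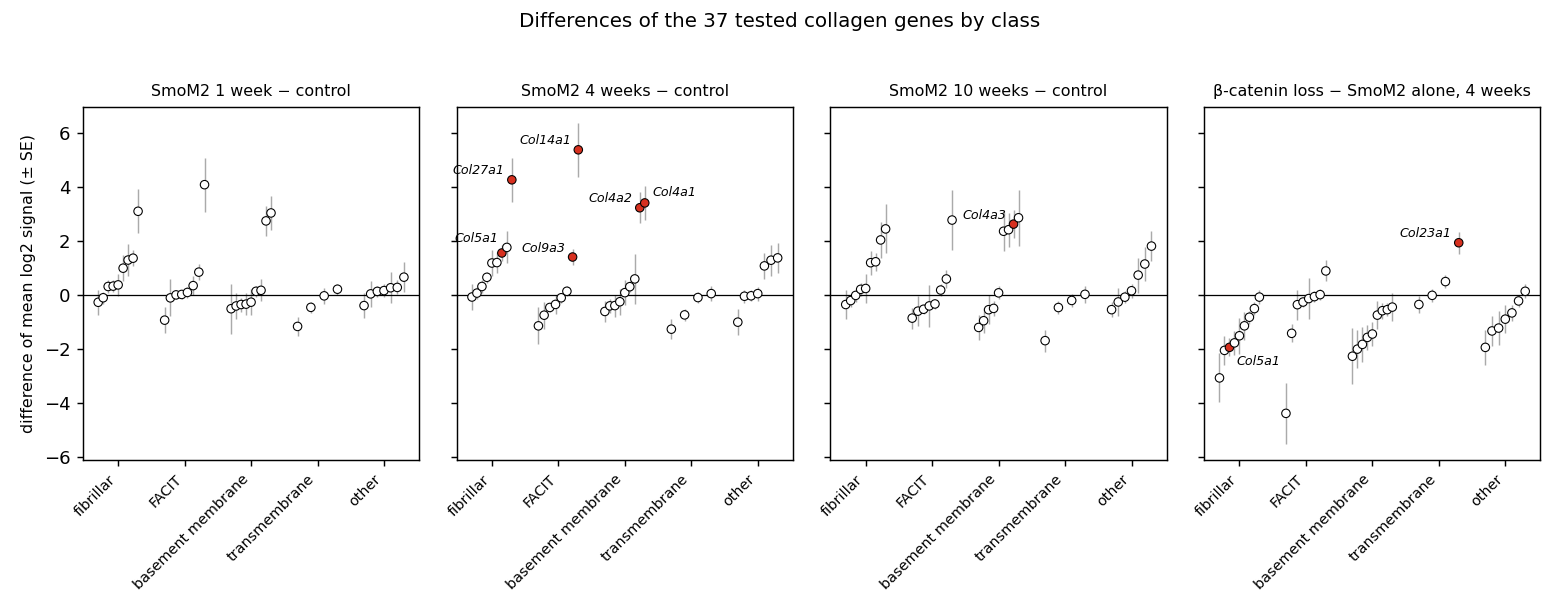
Differences of mean log2 signal ± SE (vertical axis) for the 37 tested collagen genes, grouped by class, in 4 comparisons. Filled points passed the limma test at an adjusted p under 0.05: 0 at 1 week, 6 at 4 weeks, Col4a3 at 10 weeks, and Col5a1 (lower) and Col23a1 (higher) with β-catenin loss.

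At 3 days and at 1 week of SmoM2, 0 of the 37 collagen genes passed, as did 0.00% of all genes in each comparison. At an unadjusted p under 0.05, limma had 2 of the 37 at 3 days, beside 1.55% of all genes, and 7 at 1 week, beside 4.74%. At 1 week the differences were 4.08 ± 1.00 for Col14a1 (adjusted p = 0.345), 3.09 ± 0.81 for Col27a1 (adjusted p = 0.406), 3.03 ± 0.64 for Col4a1 (adjusted p = 0.280), 2.74 ± 0.57 for Col4a2 (adjusted p = 0.253) and 1.36 ± 0.30 for Col5a1 (adjusted p = 0.333), by limma. In each of these 5 genes all 3 arrays at 1 week lay above all 3 controls. Without 1-week replicate 3, the lowest array in 4 of them, 4 passed where 0.350% of all genes did: Col4a1, Col4a2, Col5a1 and Col27a1. Among the other lists, all 7 bulge markers had differences above 0 at 1 week, up to 2.96, of which 0 passed and 4 had an unadjusted p under 0.05 by limma. Their summed log2 signal was 11.26 to 13.24 at 1 week, against 10.10 to 10.61 in the controls. Dcn differed by 3.40 ± 0.61 (adjusted p = 0.168, limma), and the fibroblast list summed to 13.61 to 14.07, against 12.84 to 13.50. The members of that list went both ways, with 7 of 15 tested above 0, a median difference of −0.03 and a lowest of −1.40. The part of these markers was not tested. Between 4 weeks and 1 week 0 passed, as did 0.00% of all genes, and 1 of the 37 had an unadjusted p under 0.05, beside 4.82% of all genes by limma.

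After 10 weeks of SmoM2, 1 of the 37 collagen genes rose and 0 fell, where 0.567% of all genes rose, 0.133% fell and 0.700% passed in either direction. This was Col4a3, with 7.43 and 7.84 at 10 weeks, against 4.96, 5.21 and 4.87 in the controls, a rise of 2.62 ± 0.52 (adjusted p = 0.0475, limma). The call was lost without any one of the 5 arrays compared. Its pair Col4a4 had 9.09 and 9.21, against 7.35, 6.03 and 5.51, a difference of 2.85 ± 1.03 (adjusted p = 0.278, limma). Both arrays at 10 weeks lay above all controls in each gene. Of the bulge markers, 3 of 7 tested rose at 10 weeks by limma: Fst (adjusted p = 0.0166), Lgr5 (adjusted p = 0.0449) and Lhx2 (adjusted p = 0.0462). Fst had 11.56 and 11.61 at 10 weeks, against 8.51, 7.56 and 8.25 in the controls. The bulge control array had 6.06 for Fst, below every IFE control, so the rise of Fst led away from that array. Dcn of the fibroblast list differed by 2.60 ± 0.69 (adjusted p = 0.118, limma). That list summed to 13.80 to 13.99 on the log2 scale at 10 weeks, against 12.84 to 13.50 in the controls. Its members went both ways, with 6 of 15 tested above 0 and a median difference of −0.06. Thy1 had 6.13 and 6.32, against 8.29, 8.05 and 8.32, and Sparc had 9.47 and 10.09, against 10.39, 12.08 and 11.67. Of 7 melanocyte genes 0 passed and 6 had an unadjusted p under 0.05 by limma, with a median difference of −2.33. All 5 leukocyte genes had differences below 0, with a median of −0.63 and 0 at an unadjusted p under 0.05 by limma. The part of these markers in the collagen results was not tested. Col8a2, a network collagen of Descemet's membrane, had 6.26 and 5.76, against 3.99, 4.10 and 4.52, a difference of 1.80 ± 0.55 (adjusted p = 0.175, limma). The 4-week replicate 2 lay above both 10-week arrays in Col4a4 and Col8a2, at 9.72 and 6.73.

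The 6 genes that rose at 4 weeks did not pass at 10 weeks, and the 10-week mean of each lay between those of the 4-week arrays and the controls. Col14a1 had 8.71 and 8.30 at 10 weeks, against 11.96, 10.08 and 11.29 at 4 weeks, a difference of −2.60 ± 1.12 (adjusted p = 0.794, limma). Col27a1 had 9.54 and 9.43, against 11.84, 10.76 and 11.31 at 4 weeks, and Col9a3 had 6.49 and 6.68, against 7.78, 7.38 and 7.04. In these 3 genes every 10-week array lay below every 4-week array. Col4a1 had 10.34 and 10.27 at 10 weeks, Col4a2 had 9.40 and 9.22, and Col5a1 had 7.93 and 8.11, all above the controls. Between 10 and 4 weeks 0 of the 37 passed, as did 0.00% of all genes, and 4 had an unadjusted p under 0.05 by limma, beside 6.25% of all genes. Col4a3 differed by 2.54 ± 0.52 (adjusted p = 0.493, limma) between these times, and without 4-week replicate 2 both Col4a3 and Col4a4 passed, beside 0.0910% of all genes.

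Other genes at 10 weeks did not pass. Col23a1 had 4.90 and 4.77, against 6.70, 5.66 and 7.23 in the controls, a difference of −1.70 ± 0.41 (adjusted p = 0.0921, limma). Col5a2 had 9.65 and 9.91, against 8.44, 7.26 and 7.53, and Col18a1 had 9.11 and 9.46, against 10.80, 10.34 and 10.34. None of these 3 genes had overlapping groups. Of the 37, 14 had an unadjusted p under 0.05 by limma, beside 10.6% of all genes. The count of 1 depends on how the spread is estimated, and it was 11 with only these 2 groups in the model, where 5.17% of all genes passed, and 14 with array weights, where 10.8% did.

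With β-catenin loss, 1 collagen gene fell and 1 rose against SmoM2 alone at 4 weeks, while 1.58% of all genes fell, 0.644% rose and 2.23% passed in either direction. Col5a1 had 6.01 and 6.79 with β-catenin loss, against 8.56, 8.37 and 8.11 with SmoM2 alone, and fell by 1.95 on the log2 scale (SE 0.34, adjusted p = 0.0223, limma). Col23a1 had 7.03 and 7.35, against 5.56, 4.98 and 5.24, and rose by 1.93 ± 0.41 (adjusted p = 0.0409, limma). Neither gene had overlapping groups. Against the IFE controls Col5a1 differed by −0.40 ± 0.34 (adjusted p = 0.597, limma), and Col23a1 by 0.66 ± 0.41 (adjusted p = 0.483, limma). Without replicate 1 of β-catenin loss 0 of the 37 passed by limma, beside 0.0140% of all genes. Without 4-week replicate 2 or replicate 3 only Col5a1 did, beside 1.60% and 1.73% of all genes. Without 4-week replicate 1 the genes were Col5a1 and Col5a3 (1.03% of all genes), and without replicate 2 of β-catenin loss they were Col5a1, Col14a1 and Col18a1 (1.64%).

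No test was made of the collagen genes as a list. The median difference from SmoM2 alone was −0.75 over the 37 and −0.09 over all genes tested, and 5 of the 37 differences were above 0. At an unadjusted p under 0.05, 20 of the 37 passed by limma, beside 17.2% of all genes. By class the median was −1.52 for fibrillar genes, −1.45 for basement membrane genes, −0.90 for the others, −0.20 for FACIT genes and 0.23 for transmembrane genes. No fibrillar and no basement membrane gene tested had a difference above 0.

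The genes that rose at 4 weeks mostly missed the threshold here. Col9a3 had 6.03 and 5.91 with β-catenin loss, against 7.78, 7.38 and 7.04 with SmoM2 alone, a difference of −1.43 ± 0.34 (adjusted p = 0.0516, limma). Both values lay next to those of the controls, which were 5.97, 6.10 and 5.93. Col14a1 had 4.43 and 9.00, against 11.96, 10.08 and 11.29, a difference of −4.39 ± 1.12 (adjusted p = 0.0645, limma). Col27a1 had 6.90 and 9.54, against 11.84, 10.76 and 11.31, a difference of −3.08 ± 0.91 (adjusted p = 0.102, limma). In Col14a1 and Col27a1 replicate 1 lay within or below the range of the controls and replicate 2 between the controls and SmoM2 alone. Col4a1 had 8.57 and 10.12, against 12.54, 10.38 and 11.15, and Col4a2 had 7.66 and 8.91, against 11.08, 9.22 and 10.08, with replicate 1 again the lower.

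Col1a2 had 5.23 and 5.34 with β-catenin loss, against 8.38, 6.54 and 7.12 with SmoM2 alone, a difference of −2.06 ± 0.54 (adjusted p = 0.0683, limma). Both values lay below the lowest control, at 5.70. Col5a3 had 4.96 and 4.34, against 5.64, 7.35 and 6.31, a difference of −1.78 ± 0.45 (adjusted p = 0.0608, limma). Fibroblast markers moved with these genes in part. Fn1, of fibronectin, fell by 2.21 on the log2 scale (adjusted p = 0.0235, limma), the summed log2 signal of the fibroblast list was 12.24 to 13.61 with β-catenin loss, against 13.40 to 13.55 with SmoM2 alone, and Lum, Pdgfra, Dpt and 3 others lay at or below the 40th percentile in both loss arrays. All 7 bulge markers had differences below 0, led by Lgr5 at −2.93 ± 0.78 (adjusted p = 0.0716, limma), of which 0 passed and 4 had an unadjusted p under 0.05. Their summed log2 signal was 11.33 to 11.87 with β-catenin loss, against 12.52 to 13.37 with SmoM2 alone. The 7 melanocyte and 5 leukocyte genes also had differences below 0, with medians of −1.07 and −0.61, and 1 of each list had an unadjusted p under 0.05 by limma. The part of these markers in the collagen results was not tested.

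Set against the IFE controls, β-catenin loss with SmoM2 had 0 collagen genes past the threshold, beside 0.371% of all genes (0.231% higher and 0.140% lower), and 6 of the 37 at an unadjusted p under 0.05 by limma, beside 14.6% of all genes. The lowest adjusted p-values were those of Col18a1, with 7.60 and 9.25, against 10.80, 10.34 and 10.34 in the controls (−2.07 ± 0.45, adjusted p = 0.0866, limma), and of Col4a5, with 7.08 and 8.37, against 9.87, 10.50 and 8.73 (−1.98 ± 0.46, adjusted p = 0.0970, limma). Both loss arrays lay below every control in each gene. Without replicate 2 of β-catenin loss Col18a1 passed, beside 0.378% of all genes.

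Col17a1 and Col7a1 gave no call in any comparison. With β-catenin loss Col17a1 had 12.66 and 12.84 and Col7a1 had 9.06 and 11.02. At 1 week Col17a1 had 12.45, 12.26 and 12.92, and at 10 weeks 12.55 and 12.52. At 1 week Col7a1 had 10.12, 10.35 and 10.96, and at 10 weeks 10.03 and 10.37, within or near its controls, which ran from 10.15 to 11.52.

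The bulge groups had 1 array each, so their differences have no test. Before SmoM2, 11 of the 37 collagen genes were at least 2-fold higher in the bulge control than in the mean of the IFE controls and 0 were at least 2-fold lower, where 7.24% of all genes were higher, 5.68% were lower and 12.9% were past 2-fold either way. The signal filter counts the bulge arrays, and Col1a1 was tested only because of them. It had 5.63 in the bulge control, against 4.26, 4.50 and 3.78 in the IFE controls. Col8a2 had 5.91, against 3.99, 4.10 and 4.52, and its IFE controls also lay below the 40th percentile. Both genes are among the 11, and neither could readily have come out lower. Col6a4, also among the 11, had 6.11, against 4.95, 4.48 and 5.06. Those controls lie near the 40th percentile, which ran from 4.88 to 5.01 over the arrays. Col14a1 had 11.79 in the bulge control, against 6.27, 5.36 and 5.58 in the IFE controls, a difference of 6.06. Col4a2 had 11.37, against 7.52, 6.85 and 6.33, and Col4a1 had 12.32, against 8.70, 7.79 and 7.36. Col27a1 had 10.54, against 6.80, 7.67 and 6.67, and Col5a1 had 8.45, against 7.14, 6.81 and 6.44. Col9a3 had 6.16, against 5.97, 6.10 and 5.93. These differences and those at 4 weeks of SmoM2 share the IFE controls. Smooth muscle and pericyte markers were higher in the same array, with a summed log2 signal of 13.34 in the bulge control, against 9.32 to 9.77 in the IFE controls, and 3 of 5 tested at least 2-fold higher. Acta2, of smooth muscle actin, had 12.38, against 7.08, 6.15 and 6.83, and Tagln had 11.72, against 6.16, 5.47 and 5.99, while Myh11 and Rgs5 lay at or below the 40th percentile in the bulge control. Fn1 of the fibroblast list had 12.27, against 6.24, 6.997 and 6.41, the 1 gene of that list's 15 tested at least 2-fold higher. Postn, chosen after its values were seen, was the 1 at least 2-fold lower, with 11.30, against 12.13, 12.15 and 12.68. The median difference over the 15 was −0.06, and 7 of the 16 fibroblast markers on the array lay at or below the 40th percentile in the bulge control. Of the bulge markers 5 of 7 were at least 2-fold higher and the other 2 at least 2-fold lower. The lower ones were Nfatc1 with 6.19, against 9.05, 7.91 and 8.31, and Fst with 6.06, against 8.51, 7.56 and 8.25. Of the melanocyte genes 6 of 7 were at least 2-fold lower. The part of these markers was not tested.

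The bulge and the IFE were also compared after SmoM2. At 4 weeks 4 of the 37 were at least 2-fold higher in bulge SmoM2 cells than in IFE SmoM2 cells and 1 was lower, where 4.04% and 1.78% of all genes were, 5.82% together. Higher were Col3a1 with 7.26 in bulge SmoM2 cells, against 4.20, 4.45 and 5.89 in IFE SmoM2 cells, Col6a3 with 7.47, against 5.88, 5.20 and 5.40, Col1a2 with 8.63, against 8.38, 6.54 and 7.12, and Col23a1 with 6.46, against 5.56, 4.98 and 5.24. Each of these 4 bulge values lay above all 3 IFE arrays. Col5a3 was the lower one, with 5.03, against 5.64, 7.35 and 6.31. None of the 6 genes that rose at 4 weeks in the IFE was among them. Col14a1 had 11.65 in bulge SmoM2 cells, against 11.96, 10.08 and 11.29 in IFE SmoM2 cells. Col4a1 had 11.36, against 12.54, 10.38 and 11.15, and Col27a1 had 10.76, against 11.84, 10.76 and 11.31. These 3 bulge values lay within or at the edge of the range of the IFE arrays. Smooth muscle and pericyte markers summed to 11.31 on the log2 scale in bulge SmoM2 cells, against 10.26 to 11.02 in IFE SmoM2 cells. The fibroblast list summed to 12.82, against 13.40 to 13.55, with 3 of 15 tested at least 2-fold higher and 2 at least 2-fold lower. The part of these markers was not tested.

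Within the bulge, 5 of the 37 were at least 2-fold higher and 6 at least 2-fold lower in the SmoM2 array than in the control array, where 4.35% and 2.59% of all genes were, 6.94% together. The higher ones were chains of collagens I, III and VI, which are abundant in dermis, and 1 chain of collagen IX: Col3a1 with 7.26 in SmoM2, against 4.33 in control, Col1a2 with 8.63, against 6.69, Col6a3 with 7.47, against 5.57, and Col6a1 with 8.60, against 7.58, besides Col9a3 with 7.36, against 6.16. Chains of collagens I and VI did not all go this way. Col6a4 had 4.99 in SmoM2, against 6.11 in control, which is among the 6 lower ones. Col1a1 had 5.26, against 5.63, while Col6a2 had 8.19, against 7.23. The fibroblast marker Lum had 5.80 in the SmoM2 array, against 4.18 in the control array, and Dcn had 9.83, against 9.81. Others of that list went the other way, Fn1 with 8.83 in SmoM2, against 12.27 in control, Thy1 with 6.68, against 9.21, and Sparc with 9.48, against 11.66. Of the 15 tested, 2 were at least 2-fold higher and 3 at least 2-fold lower. The summed log2 signal of the fibroblast list was 12.82 in SmoM2, against 13.64 in control, and Pdgfra, Dpt and Mfap5 lay at or below the 40th percentile in both arrays. Smooth muscle and pericyte markers summed to 11.31 in SmoM2, against 13.34 in control, with Acta2 at 8.99, against 12.38, and Tagln at 9.07, against 11.72. Leukocyte markers summed to 8.95, against 8.20, with Ptprc at 5.88, against 4.03. The part of these markers was not tested. The lower ones included Col16a1 with 8.14 in SmoM2, against 10.34 in control, Col12a1 with 7.17, against 8.60, Col4a2 with 10.01, against 11.37, Col5a2 with 9.06, against 10.31, and Col18a1 with 10.13, against 11.26. Col17a1 had 11.46 in SmoM2, against 12.29 in control. Its bulge SmoM2 value was the lowest of its 16 arrays. In 10 of the 37 the 4-week IFE arrays lay all on one side of the controls and the bulge difference had the opposite sign, as in 9.16% of all genes tested.

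**Figure D4:**
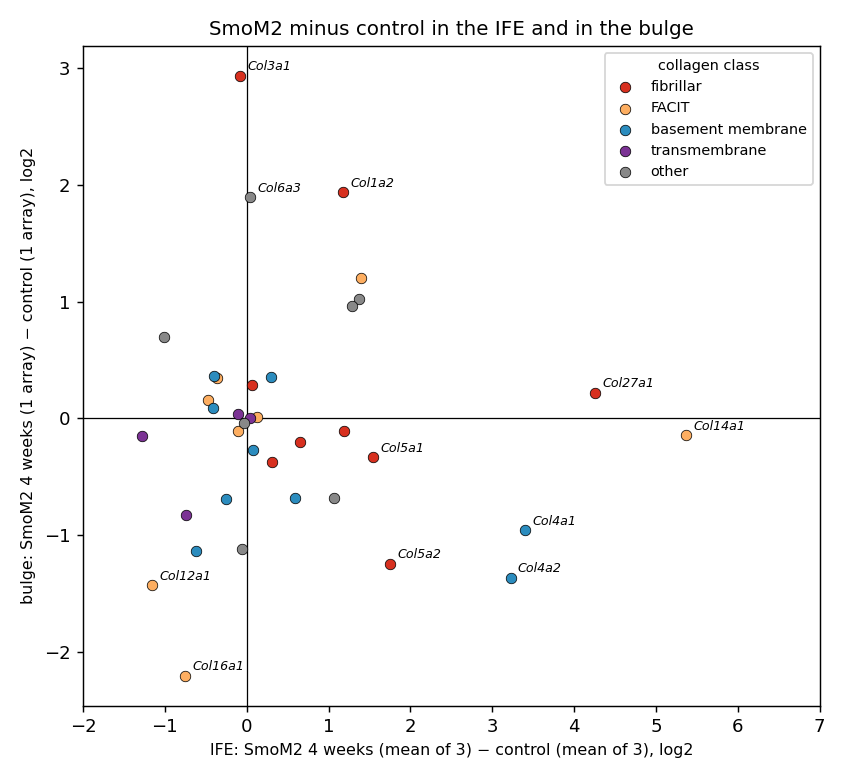
Difference of log2 signal, SmoM2 at 4 weeks minus control, for the 37 tested collagen genes in the IFE (horizontal axis, means of 3 arrays each) and in the bulge (vertical axis, 1 array each), coloured by class. Col4a1 and Col4a2 lie at 3.40 and 3.22 in the IFE and at −0.96 and −1.36 in the bulge, and Col3a1 lies at −0.08 in the IFE and 2.93 in the bulge.

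Most genes that build and modify collagen did not pass. Of 21 tested genes of collagen synthesis and processing, 1 fell and 0 rose at 4 weeks of SmoM2. It was P3h2, a prolyl 3-hydroxylase that acts on type IV and other collagens, with 7.46, 7.47 and 8.06 at 4 weeks, against 9.10, 9.51 and 9.43 in the controls. It fell by 1.68 on the log2 scale (SE 0.27, adjusted p = 0.0121, limma), and every 4-week array lay below every control. Plod1, a lysyl hydroxylase, had 9.11, 8.32 and 7.42, against 6.17, 6.63 and 6.76, a difference of 1.76 (adjusted p = 0.0717, limma), and was chosen after its values were seen. Of 7 tested collagen receptors 0 passed at 4 weeks. Mrc2, an endocytic collagen receptor, had 6.81, 5.92 and 7.58, against 8.72, 8.29 and 7.97 (adjusted p = 0.134, limma), and Itga1, a subunit of a collagen-binding integrin, had 5.79, 6.42 and 5.76, against 4.44, 4.58 and 5.23 (adjusted p = 0.257, limma). At 10 weeks and with β-catenin loss 0 genes of either list passed, by limma at the same threshold.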

How the data were processed

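RNA of 16 samples was amplified from 100 ng of total RNA by 3′ in vitro transcription labelling and read on Affymetrix arrays, per the labels' protocols. The authors deposited 1 table of log2 signals, a scale read from its values, for 45101 probe sets, and array medians lay between 5.38 and 5.53. R 2.14.0 is named in the submitters' processing notes. How background, normalization and probe set summary were handled is not given in the sources used here. A 3′ assay reads the end of a transcript, so isoforms that differ elsewhere are not told apart. The number of arrays limits the precision.

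Probe sets were named from the array annotation: 34958 had 1 gene, 932 had several and 9211 had none listed. Of those with 1 gene, 34754 matched the RefSeq gene table by identifier. Groups followed the titles. One bulge array is labelled untreated in its title and SmoM2-positive in its source, and was taken as the control. Differences were fitted with limma 3.58.1 in R 4.3.3 as group means over the 14 IFE arrays, so that all groups share 1 estimate of the spread, with a lone array assumed to vary like the rest. The 40th percentile used as a filter lay between 4.88 and 5.01. The fit was tested on simulated data. Figures were drawn with matplotlib 3.10.9 in Python 3.11.15.

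Same-numbered arrays of the control, 1-week and 4-week groups deviated together (correlations 0.34 to 0.70), so their numbers were taken to pair them. The main tests did not use this pairing. It entered only through the replicate block, which is one of the alternatives. The collagen genes, classes, gene lists and tests were chosen with earlier results of these data known. Genes named with values in every array were those called in any comparison, the 3 of each class with the highest mean, the 3 largest bulge differences each way, and Col1a1, Col1a2, Col3a1, Col4a1, Col4a2, Col7a1, Col17a1 and Col18a1. Genes of other lists were named where called, or else the 2 of lowest adjusted p. Alternatives were the filter, quantile normalization, the groups in the model, array weights, an intensity trend, the mean of all probe sets, the replicate block and leaving out each array.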

Additional observations from a re-analysis of the deposited data

Results flagged for a closer look

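At 4 weeks of SmoM2, 10 of the 37 tested collagen genes differed one way in every IFE array and the other way in the bulge pair, as did 9.16% of all genes tested. The difference between the 2 tissues was not tested, since the bulge had 1 array a group, and several of the bulge differences are small. Values are SmoM2 minus control on the log2 scale. Higher than every control in all 3 IFE arrays and lower in the bulge were Col2a1 (−0.20 in the bulge, 0.65 in the IFE), Col4a1 (−0.96 in the bulge, 3.40 in the IFE), Col4a2 (−1.36 in the bulge, 3.22 in the IFE), Col5a1 (−0.33 in the bulge, 1.55 in the IFE), Col5a2 (−1.24 in the bulge, 1.76 in the IFE), Col5a3 (−0.11 in the bulge, 1.19 in the IFE), Col14a1 (−0.14 in the bulge, 5.37 in the IFE). Lower in the IFE and higher in the bulge were Col4a6 (0.0865 in the bulge, −0.41 in the IFE), Col8a1 (0.70 in the bulge, −1.01 in the IFE), Col22a1 (0.15 in the bulge, −0.47 in the IFE).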

How the results depend on the processing

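With 1 to 3 arrays a group, single arrays decide many calls. Leaving out 1 array at a time gave 0 to 6 collagen genes called at 4 weeks against control (6 with all arrays), 0 to 4 at 1 week, 0 in each case at 10 weeks (1 with all arrays), 0 to 3 for β-catenin loss against SmoM2 alone, 0 to 1 for β-catenin loss against control and 0 to 2 for 10 against 4 weeks. Without a filter the 10-week count was 0 (1 with it) and that of β-catenin loss against SmoM2 alone 1 (2 with it). Quantile normalization gave 0 at 10 weeks and the mean of all probe sets gave 0. With only the groups compared in the model the counts were 11 at 10 weeks (5.17% of all genes passed) and 0 for β-catenin loss against SmoM2 alone (0.119%), and with array weights 14 (10.8%), 0 (0.714%) and, for 10 against 4 weeks, 1 (0.0980%). The mean of all probe sets left 2 genes past 2-fold between bulge and IFE SmoM2 cells (5 otherwise). Where no share of all genes is printed beside a count, the count does not show whether collagen genes shifted more than others. The cause of these shifts was not tested.

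The replicate block gave 8 calls at 4 weeks against control with title numbers (6.11% of all genes passed), 7 with experiment numbers (5.99%) and 7 (6.68%) over the control, 1-week and 4-week arrays alone, a setting chosen after seeing the data. The numbers of the 10-week and β-catenin loss arrays did not pair with the rest (correlations from −0.18 to 0.18). There the block gave 10 calls with title numbers (9.43% of all genes passed) and 9 with experiment numbers (8.27%) for β-catenin loss against SmoM2 alone, and 1 against control with title numbers (1.18%). It changed no other count.

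Each of the 9 calls kept its direction in the 14 to 16 alternatives run for it. The adjusted p ran from 0.00305 to 0.0947 for Col14a1 over 16 alternatives, 12 of them past the threshold, from 0.0123 to 0.0785 for Col4a2 (13 past it) and from 0.0134 to 0.109 for Col9a3 (9 past it). It ran from 0.000238 to 0.455 for Col4a3 at 10 weeks over 14 alternatives, 6 of them past it. For β-catenin loss it ran from 0.00573 to 0.240 for Col5a1 (11 of 14) and from 0.0101 to 0.240 for Col23a1 (6 of 14).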

Other observations

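Second probe sets of a gene gave a check on the arrays that stood apart. The other Col4a3 probe set had 7.50 and 8.01 in the 10-week arrays and 7.69 in 4-week replicate 2, against 4.20 to 5.18 in the IFE controls. A second Col4a4 probe set had 8.94 and 9.07 at 10 weeks and 10.09 in 4-week replicate 2, against 5.62 to 6.67 in the controls. Another Col4a4 probe set lay between 3.59 and 5.60 over all arrays and was also highest in the 2 arrays at 10 weeks. For Col14a1 and Col27a1 the second probe sets differed by 4.25 and 3.31 between 4 weeks and control, beside 5.37 and 4.26 for those used above. A further, dimmer Col14a1 probe set differed by 0.91. The dimmest Col9a3 probe set differed by −0.07, at levels of 3.14 to 3.71 that lie below the filter, and the dimmest Col5a1 probe set by 0.38, so probe sets of these 2 genes disagreed in size.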
